A study of Mus musculus with 6 samples.

Results

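The insulin-like growth factor (IGF) genes described here are 10 of the 23159 genes of the count table: the ligands *Igf1* and *Igf2*, the receptors *Igf1r* and *Igf2r*, and the binding proteins *Igfbp2*, *Igfbp3*, *Igfbp4*, *Igfbp5*, *Igfbp6* and *Igfbp7*. They were chosen by name. Of the 10 genes, 9 had enough reads to be tested, and *Igfbp2* did not. They were measured in 3 independent experiments, each with 1 library of label-retaining chondrocytes (LRCs) and 1 library of their more rapidly dividing progeny (non-LRCs), to ask which genes differ between slow-cycling cells and their progeny in the growth plate. All cells came from Col2-Q mice at postnatal day 49 (P49), which were homozygous for 4 alleles: Col2a1-tTA, recorded at *Peli2*, a TRE-H2B-GFP cassette in *Col1a1*, Col2a1-creER, and the tdTomato reporter of *R26R*. In these mice a *Col2a1* promoter drives the transactivator that loads nuclei with a green histone, and doxycycline shuts that loading off. Doxycycline was given for 4 weeks from P21 and tamoxifen at P46 and P47, to LRCs and non-LRCs alike, since both were sorted from the same mice. LRCs were the tdTomato-positive cells that were still bright for the green histone, and non-LRCs the tdTomato-positive cells with middle to low brightness. As labelled, both gates select cells that used the *Col2a1* promoter, the purity of the sort cannot be read from the counts, and each library pooled several littermates, so that the spread between single mice was not measured.

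About 10000 cells entered each LRC library and about 50000 each non-LRC library, and the total count per library ran from 18943789 to 129559872. The smallest library was LRC experiment 2, in which 1731 of the 13728 genes tested had no read, against 4 to 365 in the other 5 libraries. *Col2a1*, which defines these chondrocytes, took 7.003% to 17.4% of all counts. The summed level of 12 growth plate chondrocyte markers ran from 89030 to 234700 CPM (counts scaled by the library's normalized total, which is set to 1000000) in LRCs and from 145900 to 249800 CPM in non-LRCs, so the labelled cell type was present in both groups. Of the 12 markers, 11 were lower in LRCs in sign, with 0 called by edgeR, 7 lower at an unadjusted p below 0.05, and 4 called lower by DESeq2 and 5 by limma-voom. Of all genes tested, 9.53% were lower at an unadjusted p below 0.05, and DESeq2 called 6.15% lower and limma-voom 4.69%. *Col2a1* went both ways, at 189500, 63410 and 125700 CPM in LRCs of experiments 1, 2 and 3, against 185300, 99320 and 118700 CPM in non-LRCs. The part of these marker differences in the IGF results was not tested. In bulk libraries such as these, a lower share of cells that express a gene and less of its RNA per cell cannot be told apart.

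IGF1 and IGF2 are secreted growth factors that act through IGF1R, a receptor tyrosine kinase which signals through IRS proteins, PI3K and Akt. IGF2R, the mannose 6-phosphate receptor, takes up IGF2 for degradation. The binding proteins hold IGFs outside cells and can either withhold or deliver them, and proteases such as PAPP-A and PAPP-A2 cut certain binding proteins and so free the ligand. Growth hormone raises *Igf1* transcription through JAK2 and STAT5, and IGF1 is a known stimulator of longitudinal bone growth at the growth plate.

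The genes lie on 7 chromosomes of GRCm38, with coordinates from GENCODE M21. *Igfbp2* (chromosome 1, 72824503 to 72852474, plus strand) and *Igfbp5* (chromosome 1, 72857932 to 72874884, minus strand) are neighbours with a gap of 5457 bases. *Igfbp4* lies on chromosome 11 from 99041244 to 99054392 on the plus strand, far from *Igfbp3* (chromosome 11, 7206086 to 7213923, minus strand). *Igf1* spans 87858265 to 87937042 on the plus strand of chromosome 10, and *Igfbp7* spans 77349240 to 77408041 on the minus strand of chromosome 5. *Igf1r* (67952827 to 68233668, plus strand) and *Igf2* (142650766 to 142666816, minus strand) share chromosome 7, while *Igf2r* lies on chromosome 17 (12682406 to 12769664, minus strand) and *Igfbp6* on chromosome 15 (102144362 to 102149511, plus strand).

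The sequences just before the transcription start are shown for *Igfbp4*, *Igfbp5* and *Igfbp7*, the binding proteins with the 3 highest ratios of fitted difference to its standard error, because their promoters differ in the letters they hold. They are from RefSeq (GRCm38.p6), 5′ to 3′ on the gene's own strand, each ending just before the first base annotated as exon. Capitals mark matches to the TATA box letters TATAAA in *Igfbp4* and to the GC box letters GGGCGG, on either strand, in *Igfbp7*.
Igfbp4, chr11:99041124-99041243, plus strand: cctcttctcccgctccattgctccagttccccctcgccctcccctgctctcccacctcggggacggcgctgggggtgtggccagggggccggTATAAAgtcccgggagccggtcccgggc
Igfbp5, chr1:72874885-72874985, minus strand: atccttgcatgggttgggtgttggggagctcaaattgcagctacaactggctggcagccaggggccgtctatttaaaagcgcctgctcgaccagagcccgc
Igfbp7, chr5:77408046-77408165, minus strand: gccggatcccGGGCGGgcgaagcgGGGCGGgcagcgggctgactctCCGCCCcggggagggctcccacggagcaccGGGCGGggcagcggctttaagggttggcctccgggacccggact

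In the whole window of 250 bases before to 50 after the start, both strands searched, *Igfbp4* held 1 match to TATAAA, at position -28 from the start, and none to CCAAT or GGGCGG. *Igfbp7* held 4 matches to GGGCGG and none to the other letters, and *Igfbp5* held no match to any of them. Over all 32851 mouse promoter windows of this length, 13.6% held TATAAA, 37.4% held CCAAT and 35.7% held GGGCGG. None of the 10 genes had a match to the STAT5 letters TTCNNNGAA in these windows, which 8.3% of all windows held. Such a match is a run of letters and was not tested as a binding site. Only these letters were searched, so a variant of them was not counted.

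Expression of the IGF genes was higher in LRCs for *Igf1* and *Igfbp4*. *Igf1* was 5.18-fold higher and *Igfbp4* 5.70-fold higher, and both passed the paired edgeR quasi-likelihood test at an adjusted p below 0.05 over all 13728 genes. No IGF gene was called lower in edgeR, DESeq2 or limma-voom. Without the pairing by experiment, edgeR called 0 of the 9, with 4 at an unadjusted p below 0.05, and called only 1 of all 13728 genes. These 2 of 9 compare with 0.903% of all genes tested called higher and 0.379% called lower in LRCs. At an unadjusted p below 0.05, 5 of the 9 were higher (*Igf1*, *Igf2*, *Igfbp4*, *Igfbp5* and *Igfbp7*) and 0 lower, against 8.89% and 9.53% of all genes tested. Of the 9 genes, 6 were higher in LRCs in all 3 experiments, which was true of 20.4% of all genes tested, and 0 were lower in all 3, against 26.1% of all genes. CPM ranges of LRCs and non-LRCs did not overlap for 5 genes, all higher in LRCs, against 8.41% of all genes with such a gap in that direction and 10.3% with a gap in the other. The median log2 difference of the 9 genes was 1.05, and that of all genes tested was -0.10. In DESeq2 with the same pairing, which called 6.16% of genes higher and 6.15% lower, *Igfbp5* and *Igfbp7* were called along with *Igf1* and *Igfbp4*. limma-voom, which called 5.22% of genes higher and 4.69% lower, called *Igf2* as well as these 4.

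**Figure D1:**
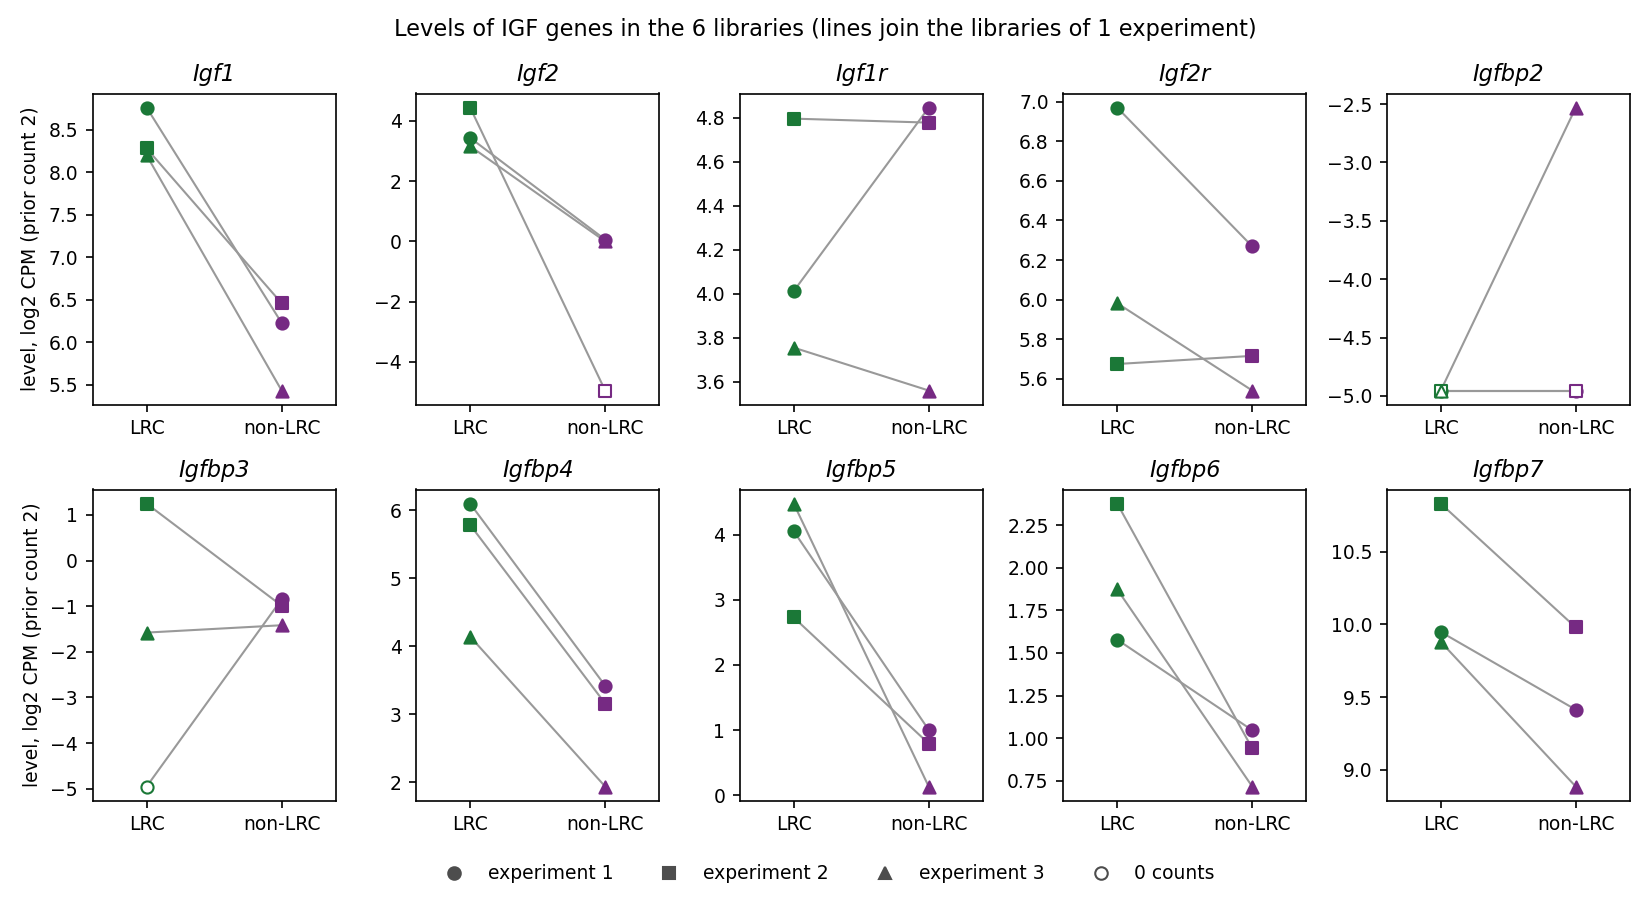
Level of each of the 10 IGF genes as log2 CPM with a prior count of 2, in the 3 LRC (green) and 3 non-LRC (purple) libraries; lines join the libraries of 1 experiment, symbols give the experiment, open symbols have 0 counts and each panel has its own axis. *Igf1*, *Igf2*, *Igfbp4*, *Igfbp5*, *Igfbp6* and *Igfbp7* lie lower in the non-LRC library of every experiment, and *Igf1r*, *Igf2r* and *Igfbp3* go both ways.

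Among the ligands, *Igf1* was read in LRCs at 434 CPM in experiment 1, 311 in experiment 2 and 294 in experiment 3, and in non-LRCs at 75.0, 88.05 and 43.2 CPM in the same order, which is kept below. Every LRC library thus lay above every non-LRC library. The level was 346 ± 76.3 CPM in LRCs, against 68.8 ± 23.1 CPM in the non-LRCs (mean ± s.d., n=3). The fitted log2 difference was 2.37 (standard error 0.22, 95% interval 1.83 to 2.91; edgeR adjusted p = 0.01765). It was 2.53, 1.82 and 2.76 within experiments 1, 2 and 3. The lowest of the 3 was thus in experiment 2, whose LRC library was the shallowest.

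*Igf2* is the ligand best known from fetal growth, expressed from the paternal allele. It was read at 10.8, 21.6 and 8.87 CPM in LRCs, from 1256, 452 and 381 counts. In non-LRCs it stood at 1.01 CPM (104 counts) in experiment 1, at 0 counts in experiment 2 and at 0.966 CPM (48 counts) in experiment 3. All LRC libraries were therefore above all non-LRC libraries, by 10.7-fold in experiment 1 and 9.18-fold in experiment 3. In experiment 2 the LRC library was at least 275-fold higher, taking the 3 counts (0.0786 CPM) that a count of 0 allows. That bound covers counting error only. The difference did not pass the edgeR test (adjusted p = 0.155), with an interval of 1.30 to 7.85 on the log2 scale. Without experiment 2, which holds the library at 0, the log2 difference was 3.31 and was called. In GENCODE, exons of *Igf2* share 3596 bases with *Gm49394* on the same strand, so that reads there cannot be assigned to 1 of the genes by position. *Gm49394* was not among the genes counted.

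**Figure D2:**
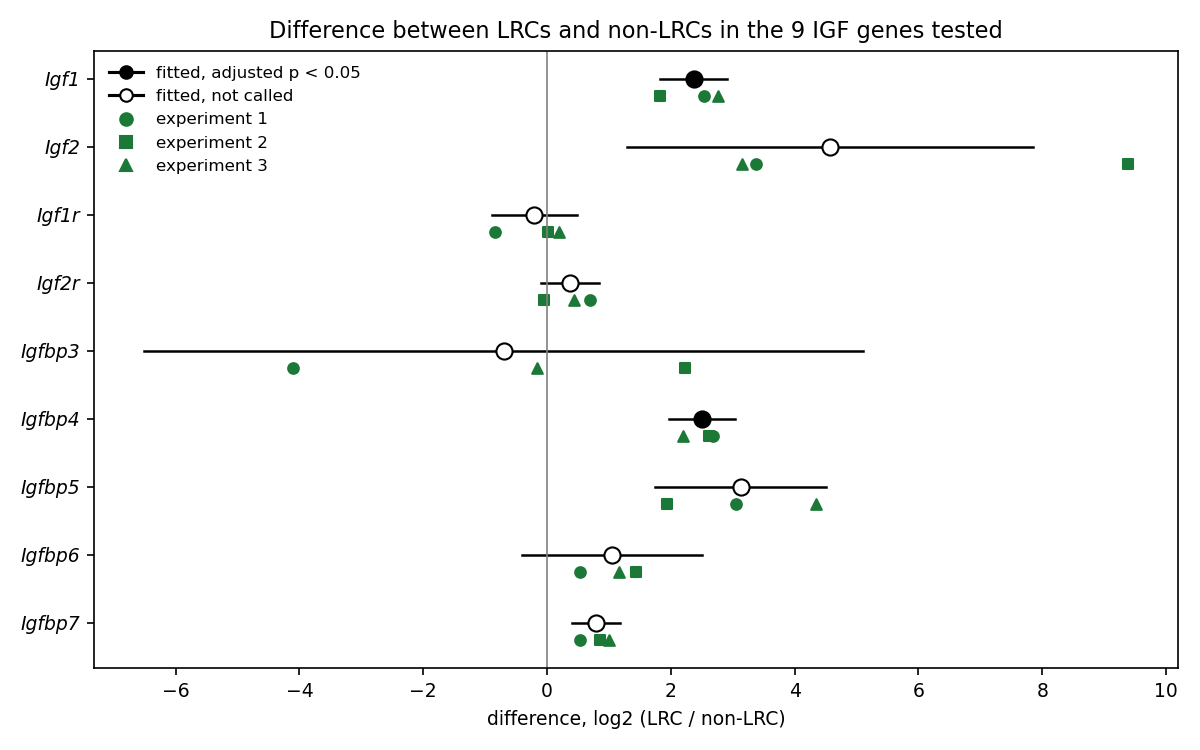
Difference between LRCs and non-LRCs on the log2 scale for the 9 IGF genes tested; circles on black lines are edgeR estimates with 95% intervals, filled where the adjusted p is below 0.05, and green symbols are the differences of log2 CPM (prior count 2) in each experiment. *Igf1* and *Igfbp4* have filled circles at 2.37 and 2.51, and the widest interval is that of *Igfbp3*, from -6.51 to 5.11.

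The receptors were not called in either direction. *Igf1r*, which carries the IGF signal, was read at 16.1, 27.8 and 13.5 CPM in LRCs, against 28.7, 27.4 and 11.8 CPM in the non-LRCs. The ranges overlapped, and the gene was lower in LRCs in experiment 1 (-0.83 on the log2 scale) and 0.02 and 0.19 higher in experiments 2 and 3. The fitted log2 difference was -0.21 with a 95% interval of -0.89 to 0.48 (edgeR adjusted p = 0.739). *Igf2r*, the uptake receptor for IGF2, was read at 125, 51.05 and 63.2 CPM in LRCs, against 77.1, 52.55 and 46.5 CPM in the non-LRCs. Its log2 difference was 0.37 (95% interval -0.10 to 0.84; edgeR adjusted p = 0.370). The ranges overlapped here too, with experiment 1 highest in both groups. *Airn*, an antisense RNA, overlaps the span of *Igf2r* on the other strand and shares none of its exon bases.

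Of the binding proteins, *Igfbp4*, whose product is the known substrate of PAPP-A, was read at 68.4, 55.1 and 17.6 CPM in LRCs, against 10.7, 8.90 and 3.80 CPM in the non-LRCs. The lowest LRC library, experiment 3, was still above the highest non-LRC library. The level was 47.0 ± 26.3 CPM in LRCs, against 7.79 ± 3.57 CPM in the non-LRCs (mean ± s.d., n=3). The fitted log2 difference was 2.51 (standard error 0.22, 95% interval 1.98 to 3.04; edgeR adjusted p = 0.0175). Within experiments 1, 2 and 3 it was 2.68, 2.62 and 2.202. The level thus varied more between experiments than the difference did. Without experiment 1, *Igfbp4* was no longer called (log2 difference 2.42, edgeR adjusted p = 0.0697).

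*Igfbp5*, which codes for a binding protein that attaches to the extracellular matrix and is common in skeletal tissue, was read at 16.6, 6.60 and 22.2 CPM in LRCs. In non-LRCs it stood at 1.98, 1.70 and 1.07 CPM, so that the groups did not overlap. Its fitted log2 difference, 3.13 (standard error 0.57, 95% interval 1.75 to 4.51), was greater than that of *Igfbp4*, but the difference varied from 1.93 in experiment 2 to 4.34 in experiment 3 and was not called (edgeR adjusted p = 0.0653). DESeq2 and limma-voom called it, and so did edgeR without experiment 2, at 3.68. Its neighbour *Igfbp2* had 0 counts in 5 libraries and 7 counts in non-LRC experiment 3, and was not tested.

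*Igfbp7* codes for a secreted protein that is related to the other IGFBPs but binds IGFs weakly. It was read at 988, 1823 and 942 CPM in LRCs, against 682, 1009 and 473 CPM in the non-LRCs. The ranges overlapped between experiments, yet within each experiment the LRC library was higher, by 0.53, 0.85 and 0.99 on the log2 scale. The fitted log2 difference was 0.79 (95% interval 0.41 to 1.18; edgeR adjusted p = 0.0777). *Polr2b*, on the other strand, shares 85 exon bases with *Igfbp7*, and the libraries did not mark strand.

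*Igfbp6*, whose product prefers IGF2 over IGF1, was low in all libraries, at 2.95, 5.16 and 3.63 CPM in LRCs, against 2.03, 1.89 and 1.61 CPM in the non-LRCs. The groups did not overlap, but the 95% interval of the log2 difference, -0.40 to 2.50, held 0 (estimate 1.05; edgeR adjusted p = 0.408). *Igfbp3*, the main carrier of IGFs in serum, was at or near the limit of these libraries, with counts of 0, 49 and 13 in LRCs, against 54, 18 and 17 in the non-LRCs. It was at least 20.4-fold lower in LRCs in experiment 1, against the 3 counts that a count of 0 allows, and 4.97-fold higher in experiment 2. The fit gave -0.70 with an interval of -6.51 to 5.11 (edgeR adjusted p = 0.902), so at this depth no direction can be given.

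Levels of different genes were compared as CPM per kilobase of exon, since longer transcripts yield more reads. *Igfbp7* had the highest level of the 10 genes in both groups, at 1035 ± 410 CPM per kb in LRCs, rank 15 of 13567 genes, and 597 ± 224 CPM per kb in non-LRCs, rank 48. It made up 97.5% to 99.5% of the summed level per length of the binding proteins among the 10 genes in every library. That is a share of RNA, and the product of *Igfbp7* binds IGFs weakly, as stated above. *Igf1* followed, at 34.9 ± 7.71 CPM per kb in LRCs (rank 1095) and 6.94 ± 2.33 CPM per kb in non-LRCs (rank 4332), and made up 89.3% to 100% of the summed ligand level. In LRCs the range of *Igf1* lay clear of the genes on either side of it, *Igfbp7* above and *Igfbp4* below. In non-LRCs it overlapped that of *Igf2r*, the gene next in order, at 6.31 ± 1.74 CPM per kb.

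*Igfbp4* came next in LRCs, at 10.7 ± 5.96 CPM per kb, and did not separate from *Igf2r*, at 8.58 ± 4.28 CPM per kb. Below them in LRCs came *Igfbp6* (3.52 CPM per kb), *Igfbp5* (2.52), *Igf2* (2.40) and *Igf1r* (1.14), in which neighbours overlapped, and then *Igfbp3* at 0.282, whose range lay below that of *Igf1r*. In non-LRCs, *Igfbp4* (1.77 CPM per kb), *Igfbp6* (1.66) and *Igf1r* (1.35) overlapped and were followed, with a gap, by *Igfbp5* at 0.263. *Igfbp3* (0.142) and *Igf2* (0.115) overlapped in non-LRCs. *Igf2* thus stood above *Igfbp3* in the mean of LRCs and below it in that of non-LRCs, and *Igf1r*, the signalling receptor, stood at 1.14 and 1.35 CPM per kb in the respective groups.

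**Figure D3:**
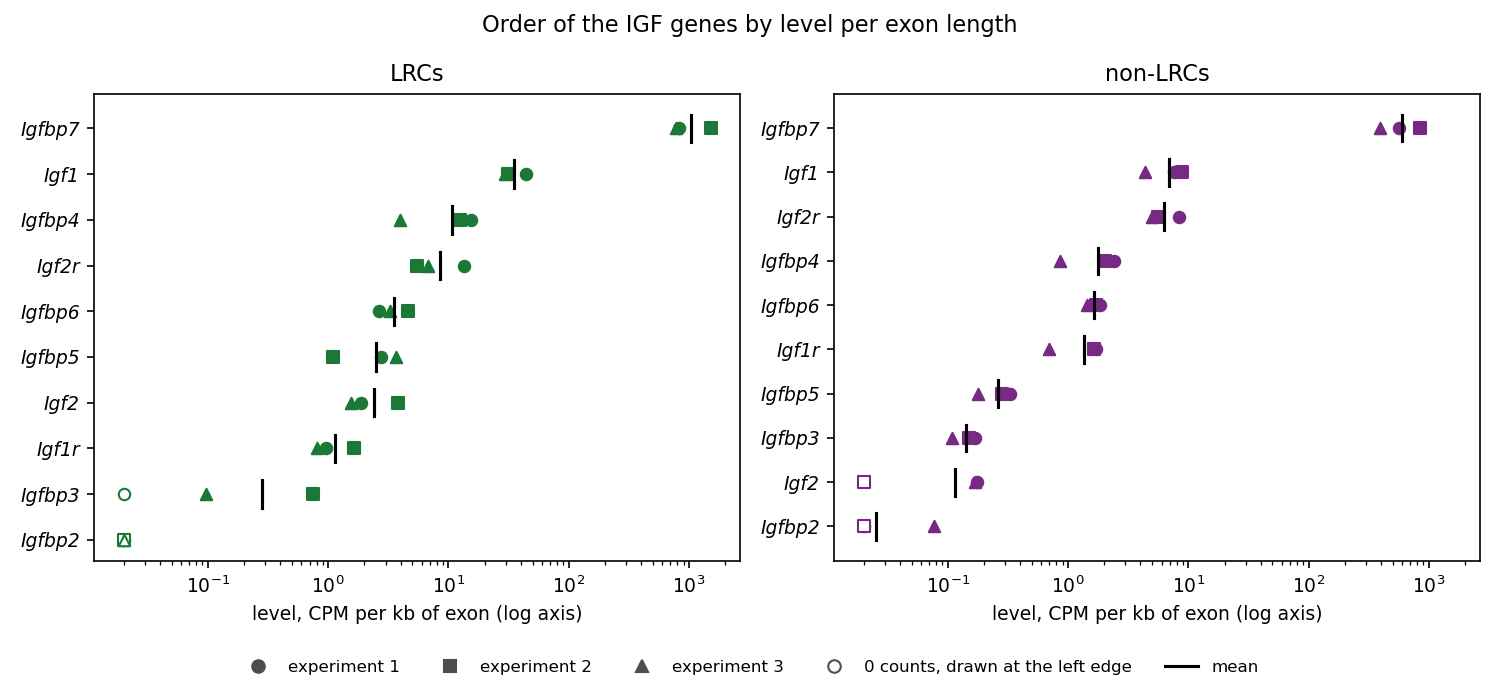
Levels of the 10 IGF genes in CPM per kb of exon on a log axis, ordered by mean within LRCs (left) and non-LRCs (right); each symbol is 1 library, vertical bars are means, and open symbols are libraries with 0 counts, drawn at the left edge. *Igfbp7* leads in both groups, and *Igf1* stands at 34.9 CPM per kb in LRCs and 6.94 in non-LRCs.

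The other genes of the pathway were taken from 5 lists of 58 genes in all, of which 57 were in the table and 49 were tested. In edgeR, 3 were called higher in LRCs and 0 lower, against the 0.903% and 0.379% of all genes given above. At an unadjusted p below 0.05, 13 were higher and 5 lower, where the shares of all genes were 8.89% and 9.53%, so the lower genes were near the background share. The median log2 difference of the 49 was 0.08. Of 7 genes tested that act on the availability of IGFs outside the cell, 2 were called, both higher and both proteases. *Pappa2*, which codes for a protease of IGFBP3 and IGFBP5, was read at 140, 12.04 and 78.9 CPM in LRCs, against 11.6, 1.75 and 4.35 CPM in the non-LRCs. Its log2 difference was 3.55 (standard error 0.31; edgeR adjusted p = 0.01765), and within the experiments the LRC library was 12.1-fold, 6.87-fold and 18.2-fold higher. *Htra1*, which codes for a secreted serine protease that cuts matrix proteins and IGFBP5, was read at 1032, 1419 and 729 CPM in LRCs, against 504, 632 and 370 CPM in the non-LRCs (log2 difference 1.06, standard error 0.14; edgeR adjusted p = 0.0372).

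The remaining genes of that list included *Pappa*, the protease of IGFBP4, at 32.4 ± 5.11 CPM in LRCs, against 16.3 ± 3.72 CPM in the non-LRCs (edgeR adjusted p = 0.0808). *Stc2*, which codes for stanniocalcin-2, an inhibitor of PAPP-A and PAPP-A2, stood at 3.69 ± 1.83 CPM in LRCs, against 21.2 ± 1.52 CPM in the non-LRCs (log2 difference -2.64; edgeR adjusted p = 0.0577). Neither passed the edgeR test, although the groups did not overlap for either gene, and DESeq2 and limma-voom called both. *Adamts1*, a secreted metalloprotease gene, had 33.3 ± 16.8 CPM in LRCs, against 61.2 ± 25.6 CPM in the non-LRCs (log2 difference -0.94; edgeR adjusted p = 0.0695), and was called lower by DESeq2 and limma-voom. *Pappa*, *Stc2*, *Adamts1* and *Ghr* were named after their values were seen.

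None of the 11 genes tested that act next to the receptor was called in edgeR, with 2 higher and 2 lower at an unadjusted p below 0.05. DESeq2 called those numbers in each direction, and limma-voom called 1 higher and 2 lower. The smallest p values belonged to *Grb10*, which codes for an adaptor that restrains the receptor (log2 difference -0.78; edgeR adjusted p = 0.0612), and to *Ptpn1*, which codes for a phosphatase of insulin and IGF receptors (0.58; adjusted p = 0.127). Of 20 genes tested in the PI3K, Akt and mTOR branch, edgeR called 0, and 3 were higher and 1 lower at an unadjusted p below 0.05. DESeq2 called 1 higher and 1 lower there, and limma-voom 1 higher. *Foxo1*, a transcription factor that Akt holds out of the nucleus, had 415 ± 105 CPM in LRCs, against 185 ± 40.0 CPM in the non-LRCs (log2 difference 1.16; edgeR adjusted p = 0.0540). *Eif4ebp1*, the translation repressor downstream of mTOR, had a log2 difference of -0.53 (edgeR adjusted p = 0.158). The unadjusted counts of these 2 lists stand against 8.89% higher and 9.53% lower among all genes. Of the genes on the 5 lists together, DESeq2 called 16 and limma-voom 14, where they called 12.3% and 9.91% of all genes in either direction.

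Of 8 genes tested in the growth hormone axis, edgeR called 1, while DESeq2 and limma-voom each called 3, all higher (*Ghr*, *Stat5a* and *Stat5b*). Of all genes tested, edgeR called 0.903% higher, DESeq2 6.16% and limma-voom 5.22%. The rest of the list, *Jak2*, *Socs1*, *Socs2*, *Socs3* and *Cish*, was called by none of these tools. The log2 differences of these genes in edgeR were -0.04, 0.43, 0.12, -0.17 and -0.81, in that order. *Stat5b*, the transcription factor that carries the growth hormone signal, was read at 123, 70.9 and 123 CPM in LRCs, against 57.3, 27.9 and 53.4 CPM in the non-LRCs. All LRC libraries were above all non-LRC libraries, with a log2 difference of 1.22 (standard error 0.15; edgeR adjusted p = 0.0333). Its close relative *Stat5a* had a log2 difference of 1.06 and an adjusted p of 0.0537 in edgeR. Of 3 genes tested that are tied to *Igf2* RNA, edgeR called 0. At an unadjusted p below 0.05, 2 were higher, against 8.89% of all genes, and DESeq2 and limma-voom called both. They were *Igf2bp2*, an RNA-binding protein gene (log2 difference 2.13; edgeR adjusted p = 0.0854), and *H19*, the imprinted neighbour of *Igf2* (1.21; adjusted p = 0.132).

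**Figure D4:**
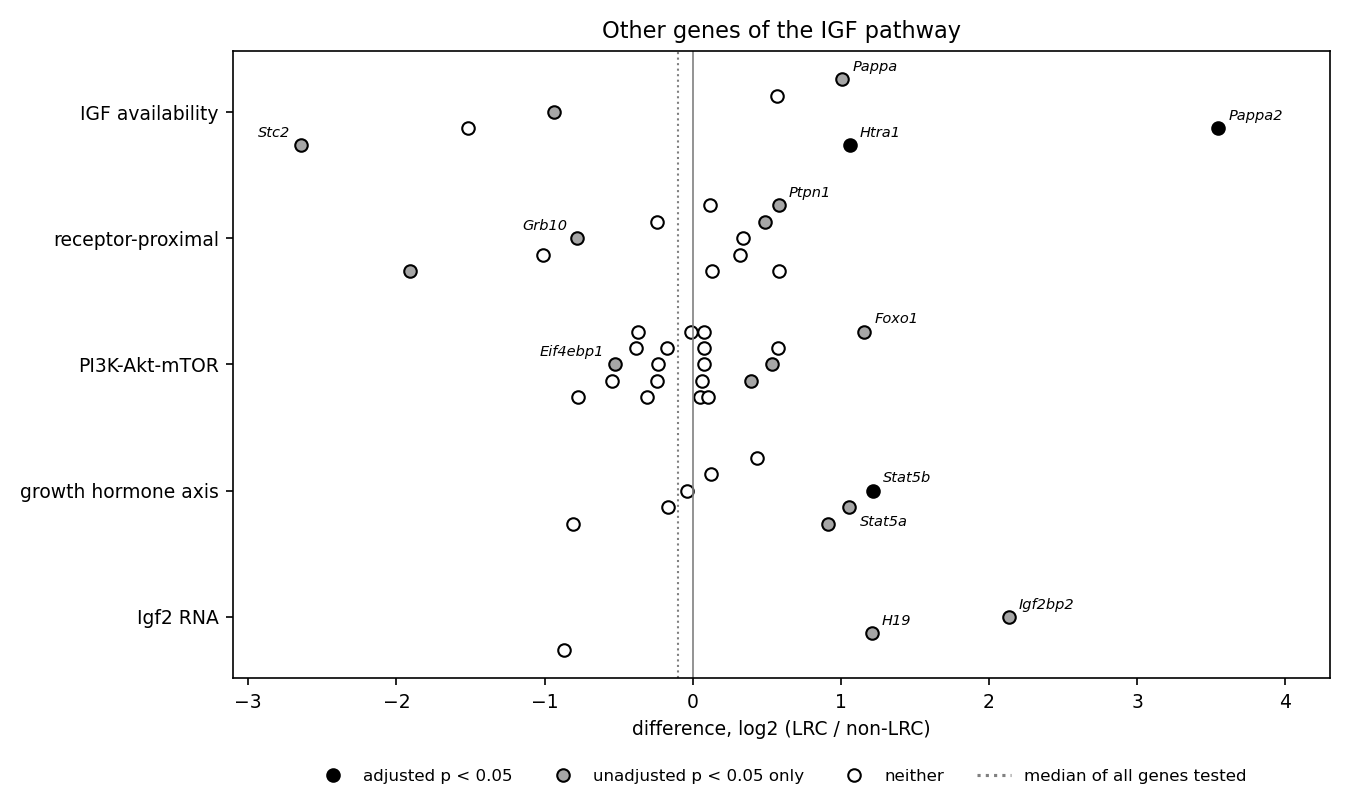
Difference between LRCs and non-LRCs on the log2 scale, fitted by edgeR, for the 49 pathway genes tested, 1 circle a gene, in 5 lists; black circles passed an adjusted p below 0.05, grey ones only an unadjusted p below 0.05, vertical offsets within a list carry no meaning, and the dotted line is the median of all genes tested. The 3 black circles are *Pappa2*, *Htra1* and *Stat5b*, all to the right of 0.

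Likeness of profiles over the 6 libraries was measured by Pearson's r of log2 CPM. Among all genes tested, those most like *Igf1* were *Pcsk5* (r = 0.997), *Tspan15* (r = 0.993) and *Plat* (r = 0.993), with fitted log2 differences of 2.61 to 2.77. Those most like *Igfbp4* were *Pcf11* (r = 0.999), *Smpd1* (r = 0.999) and *Dlgap4* (r = 0.998), whose log2 differences were 0.27, 0.54 and 1.04. The genes nearest to *Igfbp4* thus had smaller differences between the groups. These are descriptions over 6 libraries that come in 3 pairs, picked as the highest of all genes.

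Summed levels of several marker lists also differed between the groups. The summed level of 4 resting chondrocyte markers was 1222 to 1662 CPM in LRCs, against 321 to 453 CPM in the non-LRCs, with 3 of the 4 called higher. *Wif1* alone made up 874 to 1318 CPM of that sum in LRCs. The study named *Gas1* and *Wif1* as new resting markers from these same libraries, so their higher levels here are not independent of that choice. The summed level of 5 superficial articular and synovial markers was 657 to 2726 CPM in LRCs, against 134 to 241 CPM in the non-LRCs. Of the 5, 4 were higher and 1 lower in sign, and 3 were called higher. In LRCs *Prg4* stood at 109.5 to 1017 CPM, *Cilp* at 299.5 to 1096 CPM and *Cilp2* at 222.5 to 681.9 CPM. In non-LRCs these 3 reached at most 29.5, 62.3 and 141 CPM. *Htra4* was higher in LRCs in experiments 1 and 3 and had 0 counts in LRC experiment 2. *Tppp3* went both ways, at 9.64, 25.6 and 13.7 CPM in LRCs, against 12.4, 17.5 and 20.2 CPM in the non-LRCs. For 8 fibroblast and perichondrial markers the sum was 1315 to 1670 CPM in LRCs, against 685 to 866 CPM in the non-LRCs. *Dcn* alone made up 786.5 to 1055 CPM of it in LRCs, where *Pi16*, *Col14a1* and *Thy1* reached at most 0.721, 3.30 and 0.372 CPM. *Ly6a* was lower in LRCs in experiment 1 (21.5 against 36.8 CPM) and higher in experiments 2 and 3. All 6 markers of this list that were tested were higher in LRCs in sign, with 0 called by edgeR, 4 at an unadjusted p below 0.05 and 4 called by DESeq2. Of all genes tested, edgeR called 0.903% higher and DESeq2 6.16%, and 8.89% were higher at an unadjusted p below 0.05. The part of any cells that these lists mark in the levels of *Igf1*, *Igf2*, *Igfbp4* and *Igfbp5* was not tested.

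For 7 osteoblast and osteocyte markers the sum was 1374 to 3120 CPM in LRCs, against 914 to 2113 CPM in the non-LRCs, with *Sost* at 0 in every library, 3 of the 6 tested higher in sign and 1 called higher by edgeR. *Col1a2* made up 1273 to 2950 CPM of the sum in LRCs. DESeq2 and limma-voom each called 2 of the list lower. Of all genes tested, edgeR called 0.903% higher, and DESeq2 called 6.15% lower and limma-voom 4.69%. *Bglap* and *Bglap2*, which mark mature osteoblasts, were lower in LRCs in every experiment. *Col1a1* and *Dmp1* were higher in LRCs in every experiment, and *Col1a2* and *Phex* went both ways. *Col1a1* was read at 154, 53.0 and 113 CPM in LRCs, against 33.8, 8.20 and 23.3 CPM in the non-LRCs. *Dmp1* was read at 3.80, 3.155 and 6.31 CPM in LRCs, against 0, 1.83 and 1.55 CPM in the non-LRCs. The sum of 6 hypertrophic markers overlapped between the groups (817 to 1953 CPM and 843 to 2478 CPM). *Spp1* alone made up 398 to 1728 CPM of it in LRCs. All 6 were lower in LRCs in the sign of the fit, with 0 called by edgeR, 3 at an unadjusted p below 0.05, and 3 called lower by DESeq2 and 2 by limma-voom. Of all genes tested, 9.53% were lower at an unadjusted p below 0.05, and DESeq2 called 6.15% lower and limma-voom 4.69%. *Col10a1*, *Ihh* and *Alpl* were lower in LRCs in every experiment. *Mmp13*, *Spp1* and *Ibsp* went both ways, with *Mmp13* at 165 CPM in LRCs against 78.0 CPM in non-LRCs in experiment 1. Markers of endothelial and mural cells summed to 11.8 to 64.5 CPM in LRCs, against 12.3 to 30.3 CPM in the non-LRCs, with *Cdh5*, *Kdr* and *Emcn* at 0 in every library. *Pdgfrb* alone made up 11.2 to 64.1 CPM of this sum in LRCs and 11.2 to 28.2 CPM in non-LRCs. Leukocyte and erythroid markers summed to 4.78 to 7.45 CPM in LRCs, against 2.57 to 3.95 CPM in the non-LRCs. Skeletal muscle markers summed to 5.69 to 10.4 CPM in LRCs, against 8.94 to 13.96 CPM in the non-LRCs.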

How the data were processed

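RNA of CD45-negative cells, sorted from growth plates of the distal femur and proximal tibia, was amplified and made into libraries with the Nextera XT kit, which does not mark strand. The authors aligned single-end reads to mm10 (GRCm38) with TopHat2 2.0.13 and Bowtie2 2.2.1 and took non-ambiguous reads per gene with HTSeq. The gene annotation is not given in the sources used here. They deposited raw counts, which were used in all tests. They also deposited a signal, the counts divided by DESeq2 size factors, which was used only to check that relation, and rlog values, which were not used. Samples were grouped and paired by their labels.

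The raw counts were fitted with edgeR 4.0.16 (R 4.3.3), with TMM normalization, filterByExpr (minimum count 10, minimum total 15), which left 13728 genes, and the quasi-likelihood test with a block for the experiment, as the study's methods state a paired analysis. The p values were Benjamini-Hochberg adjusted over all genes tested, and a gene was called at an adjusted p below 0.05. Fitted fold changes used a prior count of 0.125 and log2 CPM a prior count of 2. Deviations from the group means correlated between libraries of the same experiment with Pearson r of 0.197, 0.288 and 0.336, across genes, and from -0.274 to 0.128 between the others. No library was a copy of another. Lengths came from GENCODE M21, which matched 20778 of the 23159 genes by current symbol and 1902 by an older one. The IGF genes, lists and alternatives were chosen with earlier results of these data known. Besides the IGF genes, the text names pathway genes called by edgeR, the 2 with the smallest p in each list, and the 3 genes most like each called IGF gene. The exceptions are stated. As alternatives, the block was dropped, and DESeq2 1.42.0, limma-voom (limma 3.58.1), other size factors, other filters, the omission of each experiment, and glmTreat were tried. The scripts were tested on simulated data. Intervals cover the spread between 3 experiments, and bounds at 0 counts cover counting error only.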

Additional observations from a re-analysis of the deposited data

How the results depend on the processing

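The counts of calls moved with the pairing, the tool, the filter and the experiments used, for IGF genes as for all genes. Over all genes tested, 176 were called with the block, 1 without it, 1692 by DESeq2, 1361 by limma-voom, 200 with DESeq2 size factors, 256 with no filter, 751 with at least 10 counts in every library, 3 by glmTreat, and 35, 782 and 223 without experiments 1, 2 and 3. Of the 10 IGF genes, 2 were called with the experiment block. Without the block 0 were called in edgeR, with 4 at an unadjusted p below 0.05 (*Igf1* 2.33, *Igfbp4* 2.59 on the log2 scale; adjusted p = 0.0643 and 0.207). DESeq2 with the block called 4 and limma-voom 5. Requiring at least 10 counts in every library gave 4 (fewer genes were tested, 11129), and the edgeR test against a fold change of 2 (glmTreat) gave 0, with 4 at an unadjusted p below 0.05. Leaving out 1 experiment gave 1 to 4. Only *Igf1* was called without experiment 1, *Igf1*, *Igf2*, *Igfbp4* and *Igfbp5* without experiment 2, and *Igf1*, *Igf2* and *Igfbp4* without experiment 3. The other size factors and no filter left the count at 2.

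Of the other pathway genes, 3 were called with the block and 0 without this block in edgeR (13 at an unadjusted p below 0.05). DESeq2 gave 16, limma-voom 14, DESeq2 size factors 5, no filter 6, at least 10 counts in every library 11, and glmTreat 0 (5 at an unadjusted p below 0.05). Leaving out 1 experiment gave 1 to 12, with 1 without experiment 1, 12 without experiment 2 and 4 without experiment 3. The direction turned for *Igfbp3* without the block (0.95) and, with 1 experiment left out, for *Igfbp3* (-2.96 to 1.07) and *Igf1r* (-0.39 to 0.10), both of them without experiment 1. With the longest transcript as the length, *Igf2* and *Igfbp5* exchanged ranks 6 and 7 in LRCs, and *Igf1r* and *Igfbp6* ranks 5 and 6 in non-LRCs. Except where stated, the cause was not tested.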
